A study of Mus musculus with 4 samples.

Results

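The elastic fibre and matricellular genes followed here, in macrophages with and without Hem1, numbered 9: Fbn1, Eln, Fbln1, Fbln2, Fbln5, Postn, Thbs1, Thbs2 and Tnc. They were chosen by name, and each was read from the probe set that the platform annotation assigns to it. Of the 9 genes, 8 had such a probe set, 1 each, among 19505 genes tested. No probe set was matched to Fbn1, which encodes the microfibril protein fibrillin-1, and it was not analysed here.

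The arrays measured RNA of macrophages grown in vitro from the bone marrow of 2 Hem1 KO and 2 wild-type (WT) mice, 1 array per mouse. Hem1, encoded by Nckap1l, is the subunit that blood cells use in the WAVE regulatory complex, which drives the branching of actin through Arp2/3. Femoral marrow of both genotypes was differentiated over 8 days in RPMI to which 10% fetal calf serum and 20% conditioned medium of L929 cells were added, and no further treatment was given. L929 is a mouse fibroblast line that secretes CSF1, the growth factor of macrophages. The part of Nckap1l that was removed, the strain, sex and age of the mice and the makeup of the cultures are not given in the sources used here.

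Elastic fibres give skin, vessels and lung their recoil. Tropoelastin is laid down on a scaffold of fibrillin microfibrils with the help of fibulins and is then crosslinked by lysyl oxidases. Matricellular proteins such as thrombospondins, tenascins and periostin sit in the matrix without carrying its load, and bind integrins and other receptors during wound repair and tissue remodelling. Fibroblasts and smooth muscle cells are the best known makers of most of these proteins, while thrombospondin-1 is also made by platelets and macrophages.

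In the Hem1 KO cultures the fibulin Fbln5, the thrombospondin Thbs2 and the tenascin Tnc were higher, by 6.15-fold, 5.30-fold and 3.49-fold. Tropoelastin itself, Eln, showed no detectable difference, with the genotypes' arrays overlapping. These 3 were the members that passed an adjusted p under 0.05 by limma over all genes, and 0 of the 8 were lower. Over all genes tested, 1.48% were called higher and 0.133% lower. The median difference of the 8 measured genes was 1.12 (Hem1 KO minus WT, log2), against 0.01 for all genes. Each difference below is the Hem1 KO mean minus the WT mean of log2 values, given with its standard error (SE) from limma, n is 2 arrays per genotype, and adjusted p-values are Benjamini-Hochberg values of limma's two-sided test over all 19505 genes.

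Promoter sequences of the 3 genes that were higher are shown because these genes moved together and the windows let their start regions be compared. They come from RefSeq (GRCm38.p6) and span 250 bases before to 50 after an annotated start, read 5′ to 3′ on the gene's strand. Capitals mark matches to the TATA box TATAAA or the GC box GGGCGG on either strand, and no 2 of the matches overlap.
Fbln5, chr12:101819070-101819369, minus strand: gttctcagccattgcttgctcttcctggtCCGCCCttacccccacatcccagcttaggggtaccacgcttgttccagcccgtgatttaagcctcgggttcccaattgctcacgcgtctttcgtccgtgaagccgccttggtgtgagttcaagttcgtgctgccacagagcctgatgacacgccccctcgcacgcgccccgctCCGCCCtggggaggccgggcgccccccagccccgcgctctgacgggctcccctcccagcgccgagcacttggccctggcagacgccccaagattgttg
Thbs2, chr17:14694213-14694512, minus strand: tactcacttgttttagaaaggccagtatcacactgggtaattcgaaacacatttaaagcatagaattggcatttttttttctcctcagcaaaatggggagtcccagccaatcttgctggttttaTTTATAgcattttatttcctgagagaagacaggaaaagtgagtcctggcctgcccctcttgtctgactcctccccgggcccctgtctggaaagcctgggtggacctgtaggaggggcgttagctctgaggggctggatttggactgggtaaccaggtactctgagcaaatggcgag
Tnc, chr4:64046887-64047186, minus strand: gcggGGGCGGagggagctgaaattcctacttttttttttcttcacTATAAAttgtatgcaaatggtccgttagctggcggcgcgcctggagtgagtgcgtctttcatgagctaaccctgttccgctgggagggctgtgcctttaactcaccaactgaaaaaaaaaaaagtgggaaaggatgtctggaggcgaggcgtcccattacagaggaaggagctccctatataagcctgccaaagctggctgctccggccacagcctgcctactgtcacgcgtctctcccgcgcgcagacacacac
The Fbln5 window holds 2 GC boxes, the Thbs2 window 1 TATA box on the opposite strand, and the Tnc window 1 of each. For each gene 1 start window is shown. Another listed Fbln5 window (chr12:101818435-101818734) holds 0 matches. Another Tnc window (chr4:64046966-64047265) overlaps the one shown and has the same TATA letters at -126 to -121 from its start. The TATAAA match of Thbs2 lies at -126 to -121 from the start, and that of the printed Tnc window at -205 to -200. Only these exact letters were marked, so the tatataag that stands closer to the start in the Tnc window is in lower case.

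The table held 11 start windows for 7 of the genes: Fbn1, Fbln1, Fbln2, Fbln5, Postn, Thbs2 and Tnc. The GC box was found in 6 of the 11, against 35.7% of all 32851 windows in the table, and the TATA box in 4, against 13.6%. Overlapping windows of Tnc hold the same sites of both motifs. Counted by gene, the GC box was found in 5 of the 7 and the TATA box in 3. Postn has a TATA box at -26 to -21 of its second listed start (chr3:54360857-54361156). The TEAD motif GGAATG (14.7% of all windows), the AP-1 motif TGANTCA (7.81%) and the CArG box bound by SRF (1.63%), each searched on both strands, were found in 0 of the 11. These are matches of letters in short windows, some of which overlap each other, and were not read as binding sites.

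Nckap1l, the targeted gene, was read first. It stood at 10.04 and 9.62 on the Hem1 KO arrays, against 11.37 and 11.11 on the WT arrays (difference -1.41, SE 0.32, adjusted p = 0.0467 by limma), so the transcript stayed measurable in the Hem1 KO cultures. Its direction held with each array left out, while the call ended in 3 of these fits: the difference was -1.28 with all arrays but WT replicate 1 (adjusted p = 0.381), -1.54 with all but WT replicate 2 (0.128) and -1.20 with all but Hem1 KO replicate 2 (0.0874). The call also ended when dim genes were left out (0.0761 and 0.0866) and when all probe sets and controls were tested (0.121). Background was set on each array from 1450 chemosensory receptor genes (olfactory, vomeronasal and taste), as their 95th percentile, which gave 6.04 and 5.38 on the Hem1 KO arrays and 5.87 and 5.51 on the WT arrays. All 8 members lay above it on all 4 arrays. The macrophage markers, such as Adgre1 and Csf1r, were above background on all arrays for 9 of 9 measured genes, so the labelled cell type was seen in both genotypes. The arrays' medians over all genes were 6.95 and 6.49 in Hem1 KO and 6.82 and 6.42 in WT, so replicate 1 read higher than replicate 2 in each genotype. The members followed this: Hem1 KO replicate 1 lay above replicate 2 for 8 of 8 members, and WT replicate 1 above replicate 2 for 6 of 8.

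**Figure D1:**
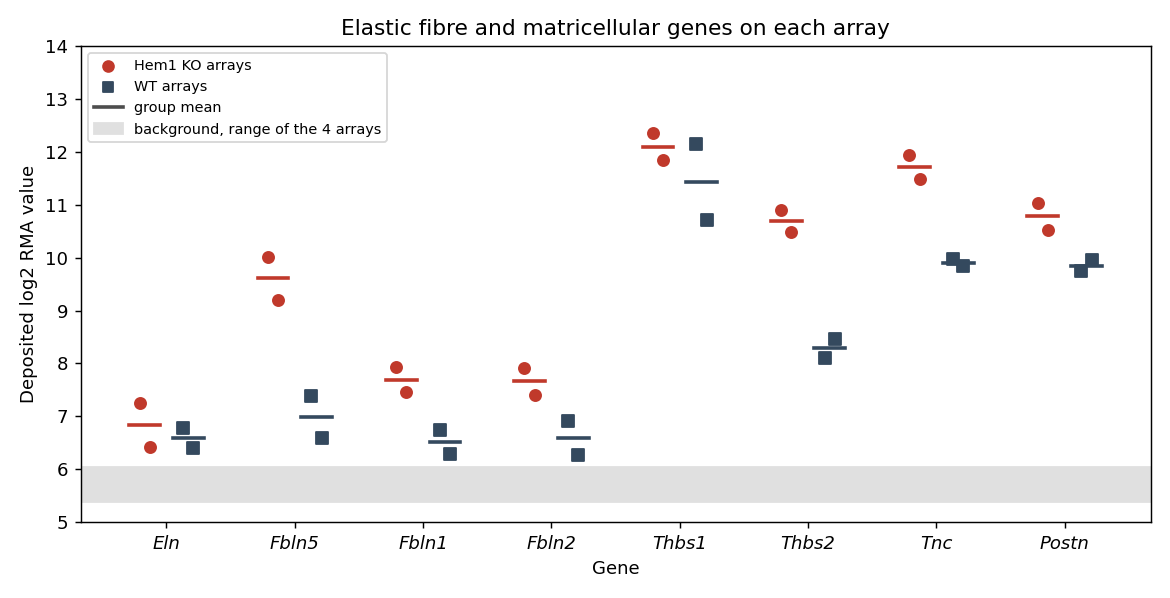
Deposited log2 RMA values (vertical axis) of the 8 measured genes (horizontal axis) on each array, with Hem1 KO arrays as circles left of WT arrays as squares, bars at the group means and a grey band over the range of the 4 arrays' background. Both Hem1 KO arrays lie above both WT arrays for 6 genes, and the arrays of Eln and Thbs1 overlap.

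Among the elastic fibre genes, Eln encodes tropoelastin, the soluble subunit that is crosslinked into elastin. It read 7.25 and 6.41 on the Hem1 KO arrays, against 6.78 and 6.39 on the WT arrays. These 4 values lay close to background and overlapped between the genotypes. The difference was 0.24 (SE 0.36, adjusted p = 1.0 by limma), with a 95% interval of -0.52 to 1.01, so that a modest change in either direction could not be told from none. Without Hem1 KO replicate 1 the difference turned to -0.17, when the median of all genes stood at -0.18.

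Fbln5 encodes fibulin-5, which binds tropoelastin and integrins and is needed in mice for elastic fibre assembly. It read 10.02 and 9.20 on the Hem1 KO arrays, against 7.38 and 6.60 on the WT arrays. The lower Hem1 KO array stood well above the higher WT array. The difference was 2.62 (SE 0.38, 95% interval 1.80 to 3.44, adjusted p = 0.00259 by limma), the largest of the 8. It ranged from 2.21 to 3.03 over the 12 other ways of fitting the data.

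Fbln1 and Fbln2 encode the larger fibulins, which bind fibronectin and elastic fibre components. Fbln1 read 7.94 and 7.46 on the Hem1 KO arrays, against 6.75 and 6.30 on the WT arrays. Fbln2 read 7.92 and 7.41 on the Hem1 KO arrays, against 6.92 and 6.27 on the WT arrays. For both genes the genotypes did not overlap, with Hem1 KO above WT. The WT values of both lay close to the WT arrays' background of 5.87 and 5.51, as those of Eln did. Neither difference passed the threshold over all genes: that of Fbln1 was 1.17 (SE 0.33, 95% interval 0.45 to 1.90, adjusted p = 0.165 by limma) and that of Fbln2 was 1.07 (SE 0.35, 95% interval 0.32 to 1.82, adjusted p = 0.316). Without Hem1 KO replicate 2 the differences were 1.41 for Fbln1 and 1.33 for Fbln2, when the median of all genes stood at 0.21. Fbln1 passed after the arrays were centred (adjusted p = 0.0290 by limma) or quantile normalized (0.0353).

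Among the matricellular genes, the 2 thrombospondins differed in their values. Both encode trimeric proteins that bind the receptor CD36, and thrombospondin-1 also activates latent TGF-beta. Thbs2 read 10.90 and 10.49 on the Hem1 KO arrays, against 8.11 and 8.47 on the WT arrays. The groups were far apart, with the arrays of each genotype close together. The difference was 2.41 (SE 0.33, 95% interval 1.70 to 3.11, adjusted p = 0.00211 by limma), the smallest p of the 8.

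Thbs1 read 12.35 and 11.84 on the Hem1 KO arrays, against 12.14 and 10.71 on the WT arrays. WT replicate 1 lay between the Hem1 KO arrays and WT replicate 2 well below them. The SD between the WT arrays was 1.01, the widest spread of any member in either genotype. The difference was 0.67 (SE 0.43, 95% interval -0.25 to 1.59, adjusted p = 1.0 by limma). It rested on WT replicate 2: without that array it was -0.048, and without WT replicate 1 it was 1.38.

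Tnc encodes tenascin-C, a hexameric glycoprotein of wounds that binds integrins and the receptor TLR4. It read 11.93 and 11.49 on the Hem1 KO arrays, against 9.98 and 9.83 on the WT arrays. The genotypes were clearly apart, and the WT arrays lay close together. The difference was 1.80 (SE 0.32, 95% interval 1.11 to 2.50, adjusted p = 0.00929 by limma).

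Postn encodes periostin, an integrin ligand that aids collagen crosslinking. It read 11.04 and 10.53 on the Hem1 KO arrays, against 9.75 and 9.95 on the WT arrays. The genotypes did not overlap, but the difference of 0.94 (SE 0.33, 95% interval 0.23 to 1.64) did not pass over all genes (adjusted p = 0.419 by limma). It passed when the prior followed intensity (adjusted p = 0.000633).

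Over the set, both Hem1 KO arrays lay above both WT arrays for 6 of 8 genes, against 12.5% of all genes tested, and below them for 0, against 13.3%. At an unadjusted p under 0.05, 6 were higher, against 3.63% of all genes. The difference was above 0 for 8 of 8, against 10113 of 19505 genes tested. Fbln5, Thbs2 and Tnc kept their calls when any single array was left out. In those fits limma's prior degrees of freedom were infinite, so all genes shared 1 spread, and the calls kept there are weak evidence.

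**Figure D2:**
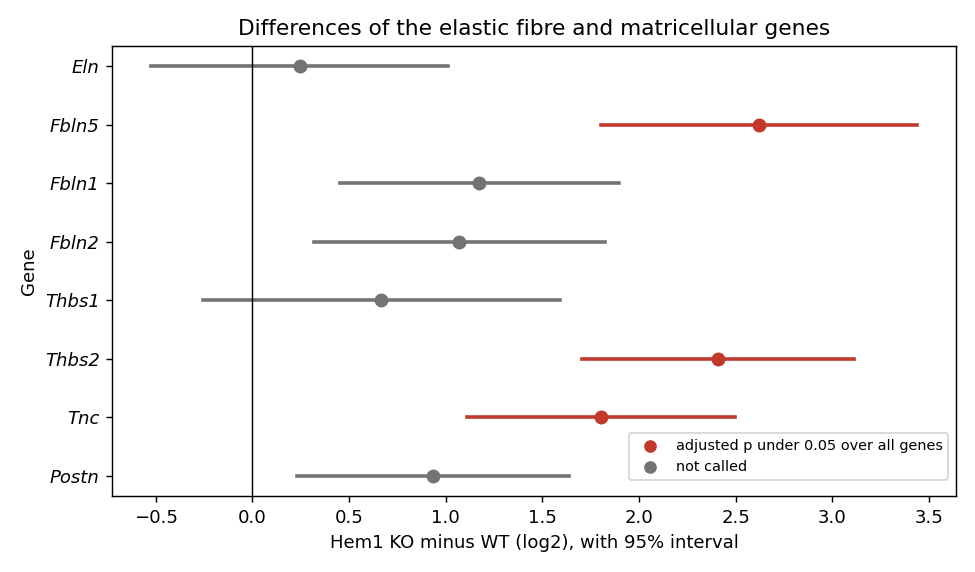
Difference between the genotypes (Hem1 KO minus WT, log2, horizontal axis) of each of the 8 genes (vertical axis), with its 95% interval from limma as a line and red points for genes with an adjusted p under 0.05 over all genes. Fbln5, Thbs2 and Tnc lie at 2.62, 2.41 and 1.80, and the intervals of Eln and Thbs1 include 0.

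**Figure D3:**
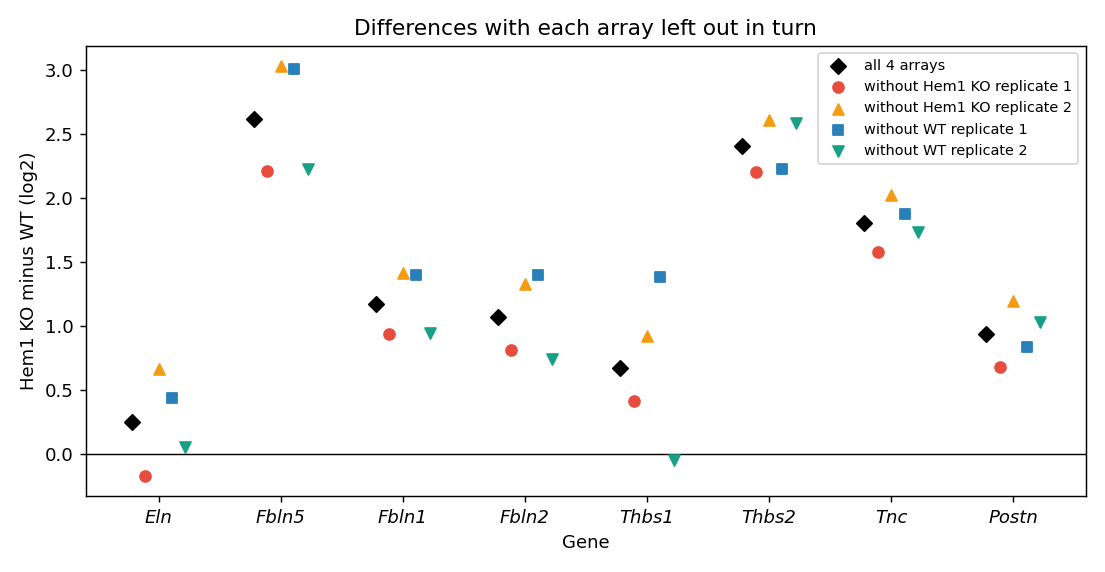
Difference between the genotypes (Hem1 KO minus WT, log2, vertical axis) of each gene (horizontal axis) with all 4 arrays and with each array left out. The difference of Thbs1 runs from -0.048 to 1.38 and that of Eln from -0.17 to 0.66, while Thbs2 stays between 2.20 and 2.61.

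Differences between members were read within each array, where a shift of the whole array cancels. For 5 pairs, chosen after the values were seen, the log2 value of the first gene minus that of the second was taken on each array. Only its change between genotypes is read, since the signals of different probe sets cannot be set against each other. For Fbln5 minus Eln the values were 2.77 and 2.79 in Hem1 KO and 0.60 and 0.21 in WT, a change of 2.38. For Thbs2 minus Thbs1 they were -1.45 and -1.35 in Hem1 KO and -4.04 and -2.24 in WT, a change of 1.74. The Hem1 KO arrays were alike in each of these pairs and above both WT arrays. Fbln5 also moved apart from Fbln1 by 1.45 and from Fbln2 by 1.55, and Tnc from Postn by 0.87. Each pair gave p = 0.333 in a two-sided exact permutation test, the smallest value that 2 arrays against 2 allow, and 0.333 after adjustment over the 5 pairs, so the test could not show unequal change.

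Of 17 measured genes of microfibrils and elastic fibre assembly, 3 were called higher, against 1.48% of all genes, and 0 lower, with a median of 0.13. At an unadjusted p under 0.05, 5 were higher, against 3.63%. Both Hem1 KO arrays lay above both WT arrays for 6, against 12.5%. The 3 called were the crosslinking enzymes Lox (2.74, SE 0.40, adjusted p = 0.00281 by limma) and Loxl1 (2.48, SE 0.34, adjusted p = 0.00218), and Ltbp1, which tethers latent TGF-beta to microfibrils (2.10, SE 0.40, adjusted p = 0.0149). Efemp1, named after its values were seen, exceeded background on neither WT array. It read 8.92 and 6.52 on the Hem1 KO arrays, which lay far apart (SD 1.69). Their mean was at least 4.08-fold higher, but Efemp1 was not called (SE 0.56, adjusted p = 0.0570 by limma). Lox read 10.90 and 10.00 in Hem1 KO and 8.21 and 7.21 in WT, and Loxl1 read 9.81 and 9.08 in Hem1 KO and 6.91 and 7.02 in WT. Both enzymes were therefore well apart between the genotypes, as Fbln5 was and Eln was not. Ltbp1 was above background on 1 of 2 WT arrays, and its call ended without WT replicate 2 (1.64). The call of Ltbp1 also ended when dim genes were left out (adjusted p = 0.109 and 0.0964 by limma) and when all probe sets and controls were tested (0.0537).

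Of 18 other measured matricellular genes, 3 were called higher, against 1.48% of all genes, and 0 lower, with a median of 0.85. They were Ccn1 (2.30, SE 0.31, adjusted p = 0.00211 by limma) and Ccn5 (2.16, SE 0.32, adjusted p = 0.00294), secreted proteins of the CCN family, and the tenascin Tnn (at least 2.11-fold, adjusted p = 0.00345), which neither WT array showed above background. With Tnc, 2 tenascins were thus called. The tenascin Tnxb was not (-0.23, with overlapping arrays), and Tnr lay at or below background on all 4 arrays. At an unadjusted p under 0.05, 8 of the 18 were higher, against 3.63% of all genes.

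Of the receptors that bind the members, limma called 0 of 22 genes, against 1.48% of all genes called higher and 0.133% lower. Before adjustment 1 higher and 1 lower gene had a p under 0.05, against 3.63% and 1.57% of all genes. The list median was 0.02. The thrombospondin receptor Cd36 read 11.04 and 10.88 in Hem1 KO and 11.83 and 11.86 in WT (-0.89, SE 0.31, adjusted p = 0.423 by limma), and passed when the prior followed intensity (adjusted p = 1.01e-05). Itga8, an integrin chain that pairs into a tenascin receptor, read 7.29 and 8.09 in Hem1 KO and 7.24 and 6.32 in WT (0.91, SE 0.39, adjusted p = 0.797). The arrays of neither gene overlapped between the genotypes, with Cd36 below and Itga8, by a narrow margin, above WT in the Hem1 KO cultures.

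Among 16 measured proteases that cut elastin or matrix and their inhibitors, 4 were called higher, against 1.48% of all genes, and 1 lower, against 0.133%. The list had a median of 0.10. Higher were the gelatinase Mmp2 (2.58), its membrane activator Mmp14 (1.68) and the inhibitors Timp3 (2.41) and Timp1 (2.18), with adjusted p-values by limma of 0.00246, 0.0332, 0.00255 and 0.00350. Mmp9, the gelatinase of macrophages and osteoclasts, was lower (-1.75, SE 0.33, adjusted p = 0.0139). Both Hem1 KO arrays lay above both WT arrays for 4 of the 16, against 12.5% of all genes, and below them for 5, against 13.3%. Besides Mmp9, those below were Mmp12 (-0.67), Ctsl (-0.68), Ctss (-0.55) and Cst3 (-0.09), none of which was called. The calls of Mmp14 (1.23) and Mmp9 (-1.45) ended without WT replicate 2. Both also ended when dim genes were left out, with adjusted p-values by limma of 0.115 and 0.112 for Mmp14 and 0.0502 and 0.0508 for Mmp9. That of Mmp14 ended when all probe sets and controls were tested (0.0972), and that of Mmp9 after quantile normalization (0.0574). Of 14 measured TGF-beta signalling genes, 2 were called higher, against 1.48% of all genes, and 0 lower, with a median of 0.16. These were the ligands Tgfb3 (2.31, adjusted p = 0.00211 by limma) and Tgfb2 (2.25, adjusted p = 0.00312).

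**Figure D4:**
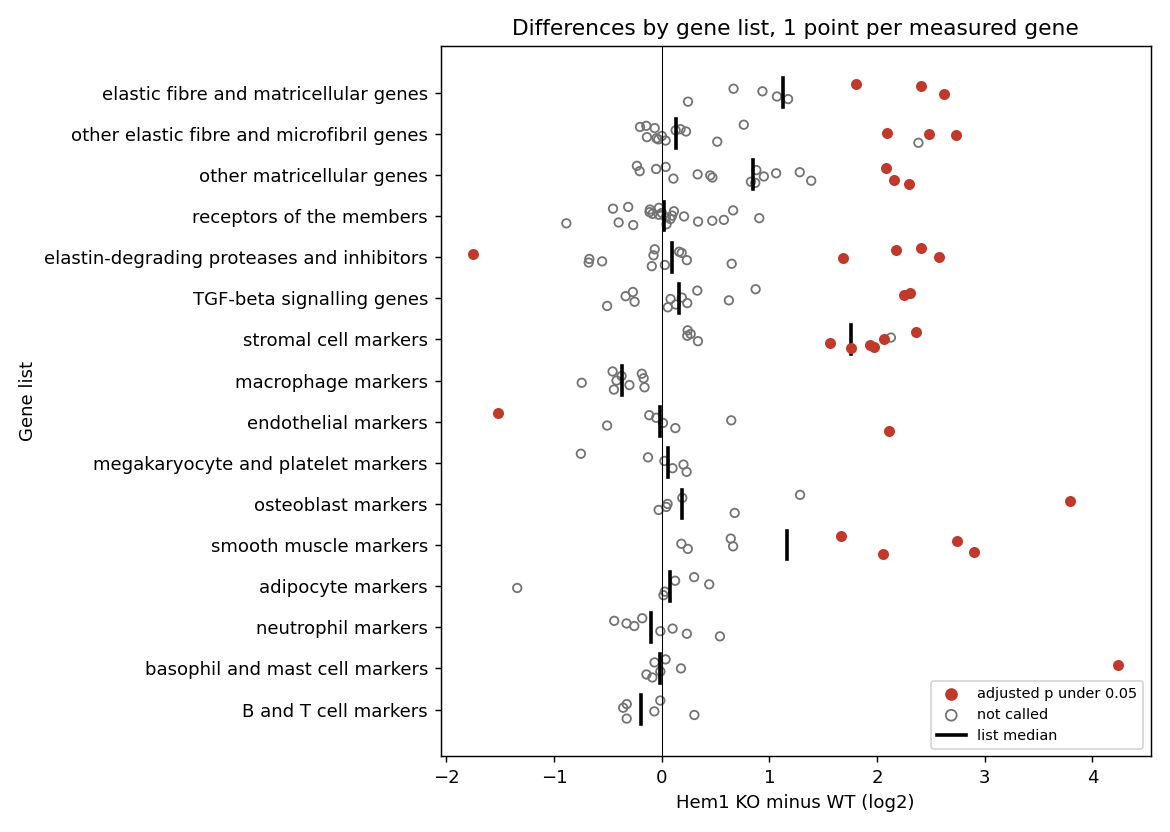
Difference between the genotypes (Hem1 KO minus WT, log2, horizontal axis) of each measured gene of the lists named on the vertical axis, with filled red points for genes called by limma and a black bar at each list's median. The members' median of 1.12 lies beside 1.75 for the stromal cell markers and 1.16 for the smooth muscle markers, and the macrophage markers lie at -0.37.

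Markers of matrix-making cells moved with the members. The list of stromal cell markers had 11 measured genes, of which 6 were called higher, against 1.48% of all genes, and 0 lower. The 6 were Pdgfrb, Cxcl12, Col1a1, Acta2, Col1a2 and Col3a1, with differences from 1.57 to 2.36, and the list median was 1.75. The log2 of the list's summed signal was 13.44 and 13.05 on the Hem1 KO arrays, against 11.65 and 11.20 on the WT arrays. The markers Lum, Lepr and Thy1 lay at or below background on all 4 arrays. Of 8 measured smooth muscle markers, 4 were called higher (Cnn1, Mylk, Actg2 and Tagln), against 1.48% of all genes, and 0 lower, with a list median of 1.16. Their summed signal was 12.82 and 12.42 on the Hem1 KO arrays, against 11.06 and 10.51 on the WT arrays, with Myh11 and Des at or below background on all 4 arrays. With WT replicate 2 left out the calls of 4 of these genes ended while the genes kept their direction: Acta2 stood at 1.5, against 1.75 with all arrays, Col1a2 at 1.58 against 1.94, Col3a1 at 1.17 against 1.57 and Tagln at 1.34 against 1.66. The calls of Col1a2, Col3a1 and Tagln also ended when dim genes were left out or all probe sets and controls were tested, with adjusted p-values between 0.0543 and 0.101. The part of such cells in the members' differences was not tested. In these cultures more cells of a type and more RNA per cell cannot be told apart.

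Of 7 measured osteoblast markers 1 was called higher, Ibsp (at least 8.62-fold), against 1.48% of all genes. At an unadjusted p under 0.05, 2 were higher, Ibsp and Sp7, against 3.63% of all genes. Sp7, named after its values were seen, was at least 1.34-fold higher (adjusted p = 0.169 by limma). The difference was above 0 for 6 of the 7, against 10113 of 19505 genes tested. Both Hem1 KO arrays lay above both WT arrays for 3, against 12.5% of all genes. The list had a median of 0.19, a summed signal of 10.61 and 9.48 in Hem1 KO and 9.29 and 8.85 in WT, and Dmp1 and Phex at or below background. Of 8 endothelial markers Cdh5 was called higher (at least 1.86-fold), against 1.48% of all genes, and Vwf lower (-1.52), against 0.133%. The call of Cdh5 ended after quantile normalization (1.99, adjusted p = 0.0738). The difference of Vwf stayed at -1.52 with either WT array left out while its call ended (adjusted p = 0.113 and 0.141), as it did when all probe sets and controls were tested (0.0637). The endothelial list had a summed signal of 10.23 and 10.12 in Hem1 KO and 10.66 and 10.16 in WT, and Tek at or below background. Of 7 basophil and mast cell markers Mcpt8 alone was called (4.24), against 1.48% of all genes called higher. The list median was -0.012, and 3 of the 7 differences were above 0, against 10113 of 19505 genes tested. Cpa3, Fcer1a, Ms4a2 and Hdc lay at or below background. The summed signal was 10.56 and 9.96 in Hem1 KO and 8.88 and 8.23 in WT, and Mcpt8 alone read 10.07 and 9.52 in Hem1 KO and 5.89 and 5.22 in WT. The megakaryocyte and platelet markers, which bear on Thbs1, had a summed signal of 12.91 and 12.54 in Hem1 KO and 12.80 and 12.63 in WT, with 0 of 6 called by limma, 1 lower at an unadjusted p under 0.05 (Treml1, -0.75), and Gp6 (0.23) at or below background. The macrophage markers lay below WT in the Hem1 KO cultures, with a median of -0.37. Their difference was above 0 for 0 of 9, against 10113 of 19505 genes tested. For 5 of 9 both Hem1 KO arrays lay below both WT arrays, against 13.3% of all genes. By limma 0 of the 9 were called, against 1.48% of all genes called higher and 0.133% lower. Before adjustment 1 was lower at a p under 0.05, against 1.57% of all genes. That gene, Fcgr1 (-0.74), passed when the prior followed intensity (adjusted p = 0.000749 by limma). After it came Adgre1 (-0.44), and the list's summed signal was 14.67 and 14.58 in Hem1 KO and 15.12 and 14.77 in WT. Limma also called 0 of 6 adipocyte, 8 neutrophil and 6 B and T cell markers. At an unadjusted p under 0.05 there were 1, 0 and 0, against 3.63% of all genes higher and 1.57% lower. The members of these lists with the smallest p were Fabp4 (-1.34) and Lep, Camp and S100a8, and Cd79a (-0.36) and Cd8a. Camp read 6.48 and 5.57 in Hem1 KO and 5.71 and 5.26 in WT. Its arrays thus overlapped between the genotypes, and neither WT array was above background. Lep, S100a8 and Cd8a lay at or below background on all 4 arrays. Fabp4 passed without WT replicate 1 (-1.84, adjusted p = 0.0162), without Hem1 KO replicate 1 (-1.84, 0.000660) and when the prior followed intensity (2.43e-08).

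Genes with the most similar pattern were sought among 12610 genes above background on at least 2 arrays, by the Euclidean distance between log2 values centred on each gene's mean over the 4 arrays. Nearest to Fbln5 were Clec11a (distance 0.096) and Plod2 (0.097). Nearest to Thbs2 were Cox6b2 (0.16) and Ncam1 (0.26), and nearest to Tnc were Lynx1 (0.076) and Meis2 (0.093). All 6 were higher in Hem1 KO, which the distance to a called gene selects for. Lynx1 did not exceed background on either WT array and was at least 3.22-fold higher, and the other 5 differed by 1.80 (Meis2) to 2.56 (Clec11a). The call of Lynx1 ended without WT replicate 2 (adjusted p = 0.0698). These distances rest on 4 arrays that all genes share and are a description.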

How the data were processed

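RNA of macrophage cultures from 2 Hem1 KO and 2 WT mice was measured on 1 Affymetrix array each. The deposited values are log2 values made by the authors with RMA, per the submitters' processing notes, which give no version or settings. RMA corrects background, normalizes and summarises probes, and compresses differences of dim genes. The log2 scale was read from the deposited values, which run from 2.70 to 14.0. No source used here gives the genome build of the arrays.

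The table has 29129 probe sets and controls. The platform annotation gives a single gene for 19572 of them, several for 0 and none for 9557, which were left out. For 55 genes with several probe sets the brightest by mean over the 4 arrays was kept, which left 19505 genes. Older symbols in the lists were updated through RefSeq synonyms. The test was lmFit and eBayes of limma 3.58.1 (R 4.3.3) with genotype as the only term, no trend, no filter on dim genes and 11.2 prior degrees of freedom. The fit was tested on simulated arrays.

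A gene at or below background on both arrays of 1 genotype only has a bound there, written "at least": in the dim group each array counts at its background where the gene reads below it, and the other group's mean is set against the mean of those values. Summed signals are the log2 of the sum of a list's unlogged values. The members, the lists and the tests were chosen with earlier results of these data known. Named genes are all members, Nckap1l, per list all called genes if at most 6, the 4 of smallest p if more, or 2 as values if none, and for each called member the 2 nearest in pattern, predicted genes left out. The alternatives left out each array, put the replicate number in the fit as a block, centred the arrays on their medians, applied quantile normalization, filtered dim genes, let the prior follow intensity, averaged probe sets, tested all probe sets and controls, and changed the threshold or the background. Per the series' design text the mice of a genotype were distinct animals, and the number of arrays limits the precision.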

Additional observations from a re-analysis of the deposited data

How the results depend on the processing

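The calls of Fbln5, Thbs2 and Tnc held in all 12 other fits, with adjusted p-values of at most 0.0446 by limma. Of the 96 values of the members in those fits, 85 kept their direction and side of the threshold, 9 passed it and 2 changed sign. With an array left out Eln ran from -0.17 (without Hem1 KO replicate 1) to 0.66, and Thbs1 from -0.048 (without WT replicate 2) to 1.38. The number of members called higher was 3 to 5 with an array left out and 5 when the prior followed intensity, where Postn (adjusted p = 0.000633) and Thbs1 (0.000830) passed. In that fit the prior degrees of freedom were infinite, so that the overlap of the Thbs1 arrays carried little weight. With the replicate number as a block, 6 members were called higher, Fbln1 (adjusted p = 0.00292), Fbln2 (0.00662) and Postn (0.0316) besides the 3, Cd36 (0.0276) and Fabp4 (0.0313) passed as lower, and 620 genes were higher and 199 lower over all. The labels do not say that the numbers pair the mice, and the replicate 1 deviations of the genotypes correlated at 0.241 across genes.

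Over all genes, 288 were higher and 26 lower, and with an array left out 185 to 545 were higher and 26 to 101 lower. Keeping genes above the median gene left 136 higher and 4 lower of 9752 tested, and keeping genes above background on at least 2 arrays left 174 and 8 of 13068. Lower genes numbered 70 after centring, which moved the median of all genes from 0.01 to -0.09, 16 after quantile normalization and 205 when the prior followed intensity. Of 538 values of 46 other named genes, 36 lost and 7 gained the call, and 3 changed sign. With an array left out Gp6 ran from -0.15 to 0.61, Lep from -0.0046 to 0.89 and Cd8a from -0.90 to 0.25. The cause of these changes was not tested.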
